A study of Mus musculus with 12 samples.

Results

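The proteasome genes were taken here as every gene of the count files whose symbol begins with Psma, Psmb, Psmc, Psmd, Psme, Psmf or Psmg followed by a number. The rule found 50 of 20661 genes. By textbook role they were 8 alpha and 7 constitutive beta subunits of the core, 4 beta subunits of the immunoproteasome or thymus, 6 ATPases and 11 non-ATPase subunits of the cap, 3 cap assembly chaperones, 6 activators or inhibitors and 4 core assembly chaperones. The remaining gene, Psmc3ip, carries the symbol but encodes a meiotic recombination factor. It was kept in the counts because the rule takes it.

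The proteasome degrades proteins that carry ubiquitin. Its core is a barrel of stacked rings, with alpha subunits outside and beta subunits inside, and the beta subunits Psmb5, Psmb6 and Psmb7 cut the substrate. In cells exposed to interferon and in immune cells, Psmb8, Psmb9 and Psmb10 take the places of these 3 and form the immunoproteasome, which feeds peptides to MHC class I. The cap recognises ubiquitin, and its ring of ATPases unfolds the substrate. Dedicated chaperones put core and cap together, and since each particle holds its subunits in fixed proportion, subunits are needed in equal amounts.

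The study measured RNA by RNAseq and ribosome footprints by ribosome profiling, which sequences the mRNA fragments shielded by ribosomes, in mouse embryonic fibroblasts (MEFs). All cells were at passage 4. WT-shSCR MEFs were WT cells given a lentiviral control hairpin, WT-shARF MEFs were WT cells given a hairpin against Arf, and Arf-/--shSCR MEFs lacked Arf, a product of Cdkn2a, and carried the control hairpin. All cells were thus lentivirally transduced, and there were 2 replicates per group and assay, 12 libraries in all. The labels give C57BL/6J for the WT MEFs, where the methods of the study give B6129SF2/J, and B6.129X1-Cdkn2atm1Cjs/KaiJ for the Arf-/- MEFs, so genotype and strain cannot be told apart. Nothing states that the replicates were separate cultures, so each p-value measures the spread between these samples only.

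Reads on genes ranged from 1578627 to 3989908 per RNA library and from 2544319 to 5157572 per footprint library. The proteasome genes took 0.782% to 0.856% of the RNA reads and 0.848% to 0.966% of the footprint reads. Levels below are CPM, read counts brought to a like library size with TMM factors, and levels per length are CPM per kilobase of coding sequence. Such factors remove a change shared by most genes, so levels and changes, those of footprints and TE included, are relative to other genes. The study reported more global protein synthesis in Arf-/- MEFs, by polysome profiling and puromycin labelling, and did not normalize by its yeast spike-in. The level of Cdkn2a was higher in the libraries labelled WT-shARF (643.7 to 668.2 CPM in RNA) than in WT-shSCR (41.93 to 44.81 CPM), which is not the direction the label gives for a knockdown. In Arf-/--shSCR the RNA of Cdkn2a was 27.67 to 32.21 CPM. Footprints of Cdkn2a had the same order, at 533.2 to 740.6 CPM in WT-shARF, 66.22 to 93.41 in WT-shSCR and 34.41 to 39.63 in Arf-/--shSCR. Both counts pool the 2 products of Cdkn2a, Arf and Ink4a, and neither measures protein. The study also assayed Arf protein by immunoblot, which was not analysed here. Directions below are given by label. Summed macrophage and myeloid markers also differed between groups. The 18 genes together had 985.0 to 989.2 CPM of footprints in WT-shSCR, 392.6 to 489.9 CPM in the libraries labelled WT-shARF and 73.87 to 89.71 CPM in Arf-/--shSCR. All 10 fibroblast markers had reads in every group and assay, with summed footprints of 46840 to 49440 CPM in WT-shSCR, 52690 to 54200 in WT-shARF and 36620 to 36730 in Arf-/--shSCR, where 4 were called higher and 3 lower than in WT-shSCR. The 7 epithelial and mesothelial markers summed to 91.45 to 111.5 CPM of footprints in WT-shSCR, 72.88 to 93.22 in WT-shARF and 170.4 to 171.1 in Arf-/--shSCR, where 4 of the 5 tested were called higher than in WT-shSCR. In the footprints of Arf-/--shSCR against WT-shSCR, 9.57% of all genes were called higher and 8.95% lower. The part of these cell type markers in the results below was not tested.

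The promoter stretches of 4 proteasome genes that were called lower in the RNA of the libraries labelled WT-shARF are shown first. The genes were picked by that call, so their shared direction there is no separate result. Of the 4, only Psmd8 was also called lower in the RNA of Arf-/--shSCR. Each runs 5′ to 3′ on the strand of the gene, ends before the annotated start of transcription, and comes from the RefSeq promoter sequences of GRCm38.p6. Capitals mark CCAAT, the letters bound by the factor NF-Y, and TGACNNNGC, the core letters of the antioxidant response element through which NRF1 (the product of Nfe2l1) raises proteasome genes. Both strands were searched.

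Psmb3: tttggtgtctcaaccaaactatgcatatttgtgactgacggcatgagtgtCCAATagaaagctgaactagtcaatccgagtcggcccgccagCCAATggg
Psmb4: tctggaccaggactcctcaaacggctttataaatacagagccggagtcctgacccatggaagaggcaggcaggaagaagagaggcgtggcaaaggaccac
Psmb6: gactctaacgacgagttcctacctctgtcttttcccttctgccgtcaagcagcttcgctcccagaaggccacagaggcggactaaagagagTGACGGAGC
Psmd8: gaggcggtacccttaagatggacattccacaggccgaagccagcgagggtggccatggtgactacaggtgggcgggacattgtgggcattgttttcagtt

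The stretch of Psmb3 is chr11:97703299-97703398 on the plus strand, and it held CCAAT at 2 places. The stretch of Psmb4 is chr3:94886962-94887061 on the minus strand and held neither motif. The stretch of Psmb6 is chr11:70525257-70525356 on the plus strand, with TGACNNNGC from -9 to -1, counted from the start site. The stretch of Psmd8 is chr7:29180702-29180801 on the minus strand and held neither. No promoter sequence of Psmb7, the remaining gene of the set, was used here.

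Over windows of 250 bases before to 50 after a start site, 42 of the 50 proteasome genes had 45 windows. TGACNNNGC lay in 6 of these 45 windows, those of Psmb5, Psmb6, Psmc6, Psmd12, Psmd9 and Psme4, against 12.39% of all 32851 promoter windows. CCAAT lay in 15 of the 45, against 37.41% of all. The proteasome windows thus held both motifs about as often as all windows did. A match shows only that the letters are there.

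Per length, footprints of the core were more even than its RNA. Across the 14 constitutive core subunits (Psma1 to Psma7 and Psmb1 to Psmb7), the SD of log2 CPM per kilobase was 0.47 to 0.72 in the 6 RNA libraries and 0.28 to 0.38 in the 6 footprint libraries, so the ranges did not overlap. The highest core subunit exceeded the lowest by 2.86 to 4.56 fold in RNA and by 1.82 to 2.54 fold in footprints. The 17 cap subunits did the same, with an SD of 0.67 to 0.90 in RNA and 0.40 to 0.49 in footprints. Over the 7975 genes with a coding length and at least 10 counts in every library the order was the opposite, with 1.81 to 1.90 in RNA and 2.02 to 2.09 in footprints. With the 9 core subunits whose coding sequence was mostly unique in the annotation (at most 50% of its 28-base windows found in a gene elsewhere), the SD was 0.50 to 0.70 in RNA and 0.23 to 0.33 in footprints. These are descriptions of the libraries, with no test.

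**Figure D1:**
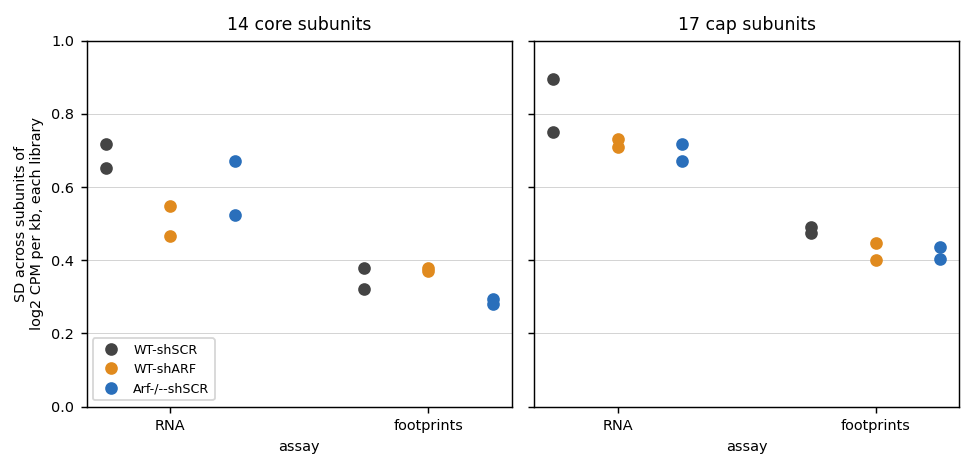
SD across subunits of log2 CPM per kilobase (vertical axis) in each library, by assay (horizontal axis) and cells (colour), for the 14 core and 17 cap subunits, 1 point per library. Every footprint library lies below every RNA library in both panels.

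Among alpha subunits, which form the gate of the core, Psma7 had the highest RNA per length in WT-shSCR MEFs (561.4 CPM per kilobase) but only 359.3 in footprints. Psma4 showed the reverse, with 153.8 in RNA and 350.7 in footprints. The highest footprint level of this role was that of Psma3 in all 3 groups (464.7 CPM per kilobase in WT-shSCR, 419.9 in WT-shARF and 496.2 in Arf-/--shSCR). The lowest was that of Psma8, the testis form, at 0.26, 0 and 0.51. Psma3 and Psma4 have pseudogenes, with 92.41% and 62.96% of their windows found elsewhere, and reads that align to several places were not counted.

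Among constitutive beta subunits, Psmb5, the chymotrypsin-like protease, had the highest footprint level per length in all 3 groups (585.1, 629.5 and 555.6 CPM per kilobase). The lowest were Psmb7, the trypsin-like protease, in WT-shSCR and WT-shARF MEFs (315.0 and 264.2) and Psmb6, the caspase-like protease, in Arf-/--shSCR MEFs (317.4). The 3 proteases thus spanned the range of the beta ring. Psmb5 has 80.39% of its windows in pseudogenes elsewhere, so its count is the less certain.

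By the median footprint level, cap subunits sat below core subunits, though Psmd8 lay within the range of the core in every group. The median footprint level of a library was 340.9 to 393.4 CPM per kilobase over the core and 176.8 to 197.1 over the cap. Psmd8, a lid subunit, stood apart within the cap, with the highest RNA level (706.5 CPM per kilobase in WT-shSCR) and the highest footprint level of the non-ATPases in every group (389.9, 292.0 and 304.0). Psmd3, another lid subunit, was the lowest in WT-shSCR (103.3) and Arf-/--shSCR (101.6), and Psmd11 was the lowest in WT-shARF (109.3). Among the ATPases, Psmc6 was the highest in WT-shSCR (252.7) and Arf-/--shSCR (284.7) and Psmc3 in WT-shARF (246.3), while the lowest was Psmc1 in WT-shSCR (172.0) and Psmc2 in WT-shARF (151.5) and Arf-/--shSCR (170.5).

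Footprints per RNA, the ratio of CPM in the 2 assays, was taken as the baseline TE. The study cut footprints with RNase T1 and fragmented RNA by heat. The part of this in differences between genes, here and in the levels per length above, was not tested. Its median over the 43 proteasome genes with at least 10 counts in every library was 1.17 in WT-shSCR, 1.13 in WT-shARF and 1.17 in Arf-/--shSCR, against 0.98, 0.99 and 0.99 over 8223 genes. In WT-shSCR MEFs 27 of the 43 lay above the median of all genes. Psmc6 was the highest there, at 3.26 footprints per RNA, and Psmd8 the lowest, at 0.55. In WT-shSCR MEFs Psmd8 thus had the most RNA per length of all 50 genes and the fewest footprints per RNA of the 43.

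**Figure D2:**
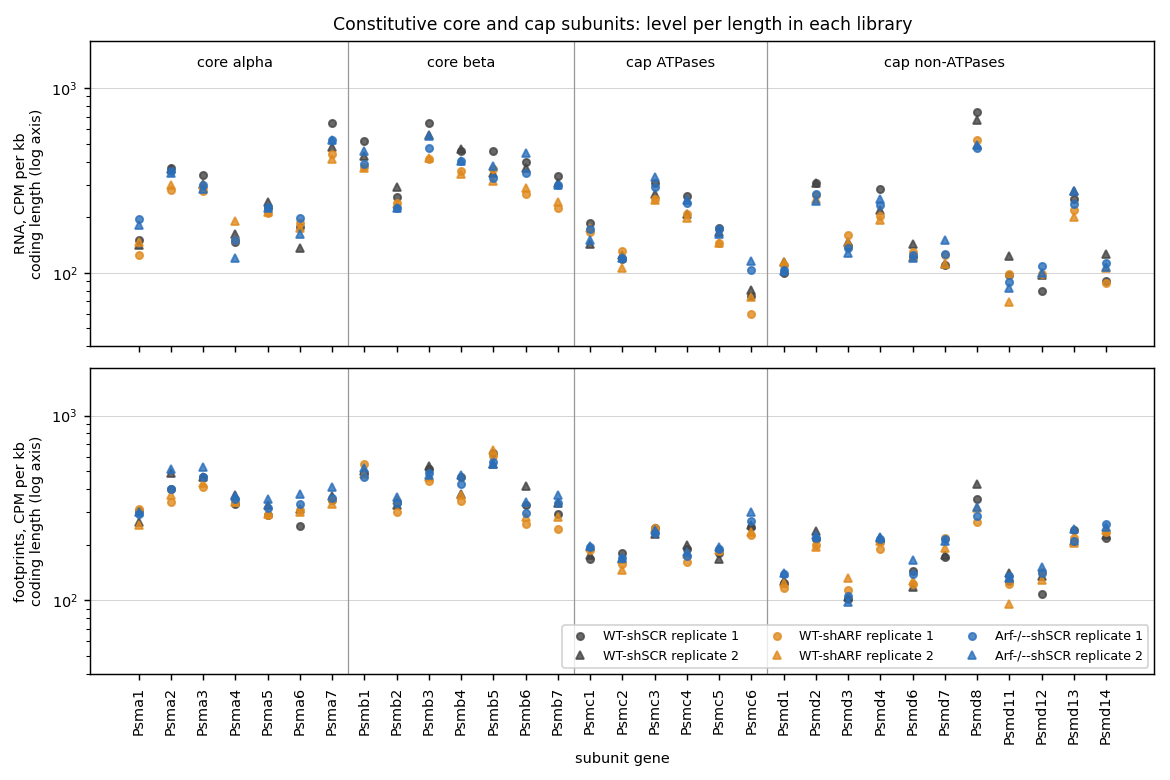
Level of the 31 constitutive core and cap subunits in CPM per kilobase of coding sequence (vertical log axis), in RNA (upper panel) and footprints (lower panel), 1 point per library, coloured by cells and shaped by replicate. Psmd8 stands above the rest of the cap in RNA, at 706.5 in WT-shSCR, and Psmc6 is the lowest cap ATPase in RNA but not in footprints.

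Regulatory and assembly members had lower levels. Of the activators and the inhibitor, Psme3, which forms the nuclear ring, had the most footprints per length (109.9, 105.7 and 118.0 CPM per kilobase in the order above), and Psme2b had none. Of the core chaperones, Psmg3 was the highest (63.12, 95.77 and 63.73) and its partner Psmg4 the lowest (18.58, 25.05 and 20.38). Of the cap chaperones, Psmd5 was the highest (66.35, 65.85 and 72.53). Psmd10 was the lowest (42.52, 33.74 and 34.65). Of the immunoproteasome subunits, Psmb10 was the highest (23.60, 24.47 and 11.31) and Psmb11, the thymus form, the lowest, with no footprint read.

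4 members had too few reads to test in any comparison. Psma8 had 1 RNA read and 5 footprint reads in all libraries together, Psmb11 had 2 and 0, Psmb9 had 2 and 8, and Psme2b had 5 and 0. A count of 0 in a footprint library allows a level of up to 0.582 to 1.179 CPM, by counting error alone. The other 46 members passed the filter on low counts in every comparison, except Psmb8 in the RNA of Arf-/--shSCR against WT-shARF, where 45 were tested.

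In the RNA of Arf-/--shSCR against WT-shSCR MEFs, 1 of the 46 tested members passed the test. Calls rest on edgeR's quasi-likelihood test with a Benjamini-Hochberg adjusted p under 0.05 over all genes. None rose, where 3.94% of all genes did, and Psmd8 fell, where 3.99% of all genes did. DESeq2 likewise called none higher, and at an unadjusted p under 0.05 edgeR had 2 higher. The median log2 fold change of the members was -0.05, against -0.004 for all genes. The largest rise was that of Psmc3ip (0.89, adjusted p = 0.335, edgeR), and the largest fall that of Psmb8 (-2.20, adjusted p = 0.0685, edgeR). Neither passed.

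In footprints of the same groups, 2 members rose and 3 fell, where 9.57% of all genes were called higher and 8.95% lower. Psma6, an alpha subunit, and Psmg1, a chaperone of the alpha ring, rose. Psmb8, Psmb10 and Psmd8 fell. The shares, 2 and 3 of 46, lay below those of all genes. None of the 5 calls remained without WT-shSCR replicate 1 or without WT-shSCR replicate 2, but those 2 fits called 0 genes of all. Psmb8, Psmb10 and Psmd8 were lost without Arf-/--shSCR replicate 1, Psma6 and Psmg1 without Arf-/--shSCR replicate 2. The median log2 fold change was 0.06, and 31 of 46 members lay above 0. The largest rise was that of Psmc3ip, which did not pass (0.97, adjusted p = 0.27, edgeR).

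In the RNA of the libraries labelled WT-shARF against WT-shSCR, 1 member rose and 5 fell, where 3.11% of all genes were called higher and 4.17% lower. Psmg2, the partner of Psmg1, rose. Psmb3, Psmb4, Psmb6, Psmb7 and Psmd8 fell, so that 4 of the 7 constitutive beta subunits were called and all 7 had a value below 0 (median -0.41, from -0.55 to -0.21). The 7 tested alpha subunits had a median of -0.15, and the largest fall among them, of Psma7, did not pass (-0.41, adjusted p = 0.0746, edgeR). Over all members the median was -0.15 and 15 of 46 lay above 0, against 49.843% of all genes. The largest fall, of Psmb8, did not pass (-0.92, adjusted p = 0.413, edgeR). These calls were sensitive to the test: DESeq2 kept Psmb3 and Psmd8 only, and none of the 6 remained without WT-shSCR replicate 1, without WT-shARF replicate 1 or without WT-shARF replicate 2, where 580, 410 and 274 genes of all were called.

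In footprints of these groups no member rose, where 5.63% of all genes did, and 3 fell, where 5.5% of all genes did. DESeq2 also called none higher, and 3 members were higher at an unadjusted p under 0.05 in edgeR. The 3 that fell were Psma2, Psmb6 and Psmd8. The median over members was -0.05. The beta subunits had a median of -0.20 and 1 of 7 passed. The largest rise was that of Psmg1 (0.70, adjusted p = 0.0688, edgeR) and the largest fall that of Psmb8 (-1.03, adjusted p = 0.34, edgeR), and neither passed. None of the 3 calls remained without WT-shARF replicate 1 or without WT-shSCR replicate 2, where 660 and 1035 genes of all were called. The contrasts of WT-shARF and of Arf-/--shSCR share the WT-shSCR libraries, so their values stand side by side and are not independent.

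**Figure D3:**
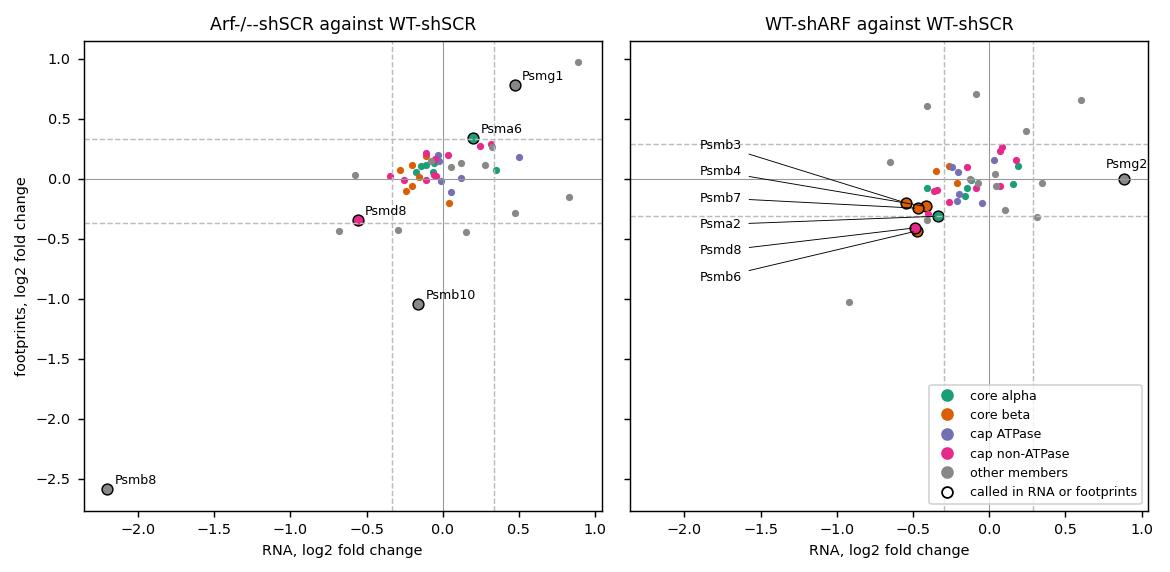
Log2 fold change in RNA (horizontal axis) and in footprints (vertical axis) of each tested member, against WT-shSCR, in Arf-/--shSCR (left) and in the libraries labelled WT-shARF (right), coloured by role. Dashed lines mark the quartiles of all genes tested, and most members lie inside them, with Psmb8 far below in the left panel at -2.20 and -2.59.

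Arf-/--shSCR against WT-shARF tests the difference between the effects. In RNA, 1 member was higher in Arf-/--shSCR and none lower, where 1.38% of all genes were called higher and 1.19% lower. It was Psmc6. No member was lower in DESeq2 or at an unadjusted p under 0.05 in edgeR. The largest fall was that of Psma4 (-0.34, adjusted p = 0.351, edgeR). In footprints, Psma2, Psmb4, Psmb7 and Psmc6 were higher and none was lower, where 3.93% of all genes were called higher and 4.3% lower. DESeq2 called none lower, edgeR had 5 lower at an unadjusted p under 0.05, and Psmb10 was called lower in 5 of 12 alternatives. The largest fall was that of Psmb8 (-1.57, adjusted p = 0.28, edgeR). Without WT-shARF replicate 1 or 2 no call remained in either assay, but these fits called only 35 and 6 genes of all in RNA and 0 and 1 in footprints. No footprint call remained without Arf-/--shSCR replicate 2, where 641 genes of all were called.

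The change of TE, the change of footprints beyond that of RNA, was not called for any member in any comparison. For Arf-/--shSCR against WT-shSCR 0.0884% of all genes were called higher and 0.106% lower, for WT-shARF 0.0354% and 0%, and for Arf-/--shSCR against WT-shARF 0.0172% and 0.0258%. At an unadjusted p under 0.05 edgeR had 0 members higher and 1 lower, 5 and 1, and 2 and 3 in the same order, and DESeq2 called none in any of the 3. The members had a median TE change of 0.09, 0.09 and -0.09, against -0.04, 0.01 and 0.00 for all genes. Above 0 lay 29, 35 and 20 of the 46 members, against 46.588%, 50.66% and 50.198% of all genes. All 7 constitutive beta subunits lay above 0 in WT-shARF (median 0.23), with none called. The RNA of these subunits, all below 0 there (median -0.41), enters the TE change with opposite sign, so the shared sign is no separate result. The extremes were chaperones. Psmg3 had the highest value in Arf-/--shSCR (0.57, adjusted p = 0.876, edgeR) and in WT-shARF (1.02, adjusted p = 0.73, edgeR). Psmg2 had the lowest in both (-1.01, adjusted p = 0.439, and -0.87, adjusted p = 0.659, edgeR). Between Arf-/--shSCR and WT-shARF the extremes were Psma4 (0.43, adjusted p = 0.619, edgeR) and Psmb10 (-0.88, adjusted p = 0.7, edgeR). The standard error of the TE change was 0.17 for Psmd8, and 1.11 for Psmb8 in Arf-/--shSCR. Psmb1, an abundant beta subunit, had a TE change of 0.43 in WT-shARF (SE 0.17) that did not pass (adjusted p = 0.641, edgeR). A TE change of moderate size could thus be missed in abundant members too, and more so in the rare ones.

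Psmd8 (chr7:29174188-29180701, minus strand) was the member lower in both contrasts and both assays. Its RNA was 786.9 and 709.5 CPM in the WT-shSCR replicates, 554.2 and 520.9 in WT-shARF and 501.3 and 517.4 in Arf-/--shSCR. Every WT-shSCR value lay above all others, and the Arf-/--shSCR values lay just below those of WT-shARF. Its footprints were 375.3 and 450.5 CPM in WT-shSCR, 282.1 and 336.4 in WT-shARF and 304.9 and 338.9 in Arf-/--shSCR, again with WT-shSCR above the other groups, which overlapped. In Arf-/--shSCR its RNA fell by 0.56 on the log2 scale (SE 0.14, adjusted p = 0.0209, edgeR) and its footprints by 0.35 (SE 0.10, adjusted p = 0.0157, edgeR). In WT-shARF its RNA fell by 0.48 (SE 0.13, adjusted p = 0.0162, edgeR) and its footprints by 0.41 (SE 0.10, adjusted p = 0.00655, edgeR). Arf-/--shSCR and WT-shARF differed by -0.08 in RNA (adjusted p = 0.796, edgeR). The TE of Psmd8 had changes of 0.18 and 0.09 that did not pass (adjusted p = 0.89 and 0.961, edgeR). The call in the RNA of Arf-/--shSCR was lost without WT-shSCR replicate 1, WT-shSCR replicate 2 or Arf-/--shSCR replicate 1, and also in the fit blocked on replicate, with values of -0.62 to -0.48 over the alternatives.

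The beta subunits with lower RNA in WT-shARF make up most of the beta ring. Psmb3 (chr11:97703399-97713500, plus strand), a non-catalytic subunit, had RNA of 395.3 and 343.8 CPM in WT-shSCR, 252.4 and 257.0 in WT-shARF and 289.4 and 338.4 in Arf-/--shSCR. Its RNA fell by 0.55 on the log2 scale in WT-shARF (SE 0.13, adjusted p = 0.00971, edgeR), while its footprints, 315.3 and 328.7 against 270.6 and 287.7, did not pass (-0.20, adjusted p = 0.197, edgeR). The groups did not overlap in either assay. Psmb3 has 85.88% of its windows in genes elsewhere.

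Psmb4 (chr3:94884093-94886961, minus strand), a non-catalytic subunit of the ring, had RNA of 361.1 and 372.2 CPM in WT-shSCR, 283.0 and 269.9 in WT-shARF and 319.7 and 317.8 in Arf-/--shSCR, with no overlap between any groups. The fall in WT-shARF was near the threshold (-0.41, SE 0.13, adjusted p = 0.0498, edgeR) and was lost in 9 of 12 alternatives, namely DESeq2, RLE factors, TMM factors without ribosomal protein genes, no filter, all groups in one fit and the omission of any of the 4 replicates. Its footprints were 370.4 and 297.6 CPM in WT-shSCR, 273.8 and 294.8 in WT-shARF and 339.2 and 378.8 in Arf-/--shSCR, and were higher in Arf-/--shSCR than in WT-shARF (0.34, SE 0.09, adjusted p = 0.022, edgeR).

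Psmb6 (chr11:70525367-70527858, plus strand) had RNA of 284.6 and 264.5 CPM in WT-shSCR, 190.8 and 205.5 in WT-shARF and 248.7 and 317.8 in Arf-/--shSCR. Its footprints were 233.0 and 295.2 CPM, 185.8 and 203.0, and 211.4 and 241.9 in the same order. WT-shARF was the lowest group in both assays, without overlap. Psmb6 was the beta subunit called in both assays of WT-shARF, by -0.47 in RNA (SE 0.14, adjusted p = 0.0304, edgeR) and -0.43 in footprints (SE 0.11, adjusted p = 0.0102, edgeR). The values in Arf-/--shSCR were 0.04 and -0.21 (adjusted p = 0.919 and 0.25, edgeR). The difference between Arf-/--shSCR and WT-shARF, 0.51 in RNA, did not pass (adjusted p = 0.0921, edgeR), though it did in 2 of 12 alternatives. The RNA call in WT-shARF was lost in 5 of 12.

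Psmb7 (chr2:38588036-38644087, minus strand) had RNA of 278.6 and 254.8 CPM in WT-shSCR, 186.5 and 201.5 in WT-shARF and 246.8 and 247.8 in Arf-/--shSCR. Its RNA fell by 0.46 on the log2 scale in WT-shARF (SE 0.14, adjusted p = 0.0361, edgeR), a call lost in 5 of 12 alternatives. Its footprints were 244.8 and 278.7, 203.1 and 236.0, and 281.3 and 308.8 CPM, lowest in WT-shARF and highest in Arf-/--shSCR, and these last 2 groups differed by 0.43 (SE 0.10, adjusted p = 0.0108, edgeR). Psmb5 (chr14:54614119-54618022, minus strand), the catalytic subunit that was not called anywhere, had RNA of 362.6 and 274.8 CPM in WT-shSCR, 287.3 and 249.5 in WT-shARF and 258.5 and 298.4 in Arf-/--shSCR. The groups overlapped, and the values were -0.27 in WT-shARF and -0.20 in Arf-/--shSCR (adjusted p = 0.298 and 0.501, edgeR). Its footprints, 493.9 and 432.8, 480.9 and 516.2, and 444.2 and 435.8 CPM, overlapped between WT-shSCR and each other group. Both WT-shARF values lay above both Arf-/--shSCR values, a difference of -0.18 that did not pass (adjusted p = 0.182, edgeR).

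**Figure D4:**
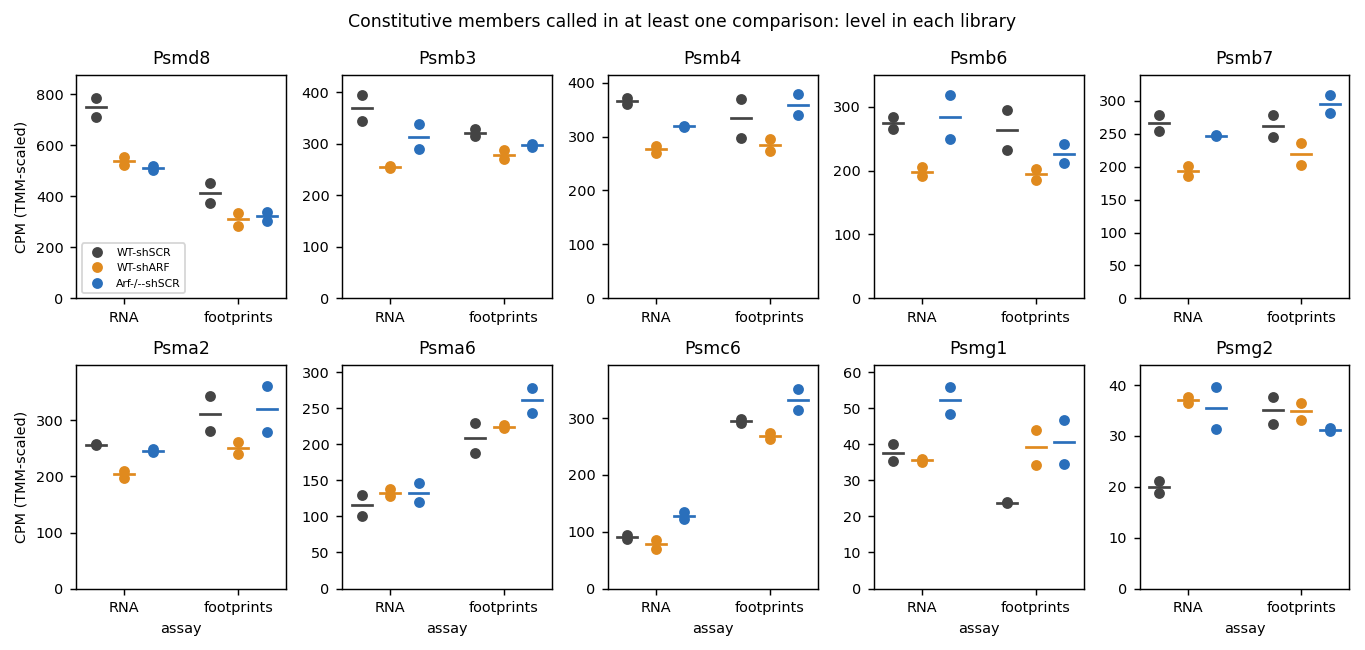
Level in CPM (vertical axis, from 0) of 10 members called in at least 1 comparison, in RNA and footprints (horizontal axis), 1 point per library with a bar at the mean of the 2 replicates, coloured by cells. WT-shSCR lies above the other groups for Psmd8 (RNA 786.9 and 709.5), and WT-shARF lies lowest in the RNA of Psmb3, Psmb4, Psmb6 and Psmb7.

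Psmc6 (chr14:45329788-45349705, plus strand), an ATPase of the cap, was higher in Arf-/--shSCR than in WT-shARF in both assays. Its RNA was 121.6 and 134.8 CPM in Arf-/--shSCR, 70.21 and 85.99 in WT-shARF and 86.97 and 94.18 in WT-shSCR, so Arf-/--shSCR was above all other libraries. Its footprints were 313.6 and 350.9, 264.1 and 273.2, and 291.4 and 298.4 CPM, with no overlap between groups. The difference was 0.69 in RNA (SE 0.17, adjusted p = 0.0428, edgeR) and 0.31 in footprints (SE 0.09, adjusted p = 0.0375, edgeR). Each was lost in 4 of 12 alternatives, DESeq2 among them. Against WT-shSCR neither contrast passed, with 0.50 in the RNA of Arf-/--shSCR (adjusted p = 0.0955, edgeR) and -0.20 in that of WT-shARF (adjusted p = 0.585, edgeR).

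Of the called alpha subunits, Psma6 (chr12:55384222-55418454, plus strand) had footprints of 187.5 and 230.2 CPM in WT-shSCR, 226.2 and 221.9 in WT-shARF and 243.7 and 278.4 in Arf-/--shSCR. They rose in Arf-/--shSCR by 0.34 (SE 0.12, adjusted p = 0.0431, edgeR), a call lost in 5 of 12 alternatives, among them DESeq2 and upper quartile factors. Psma2 (chr13:14613240-14674236, plus strand) had footprints of 281.2 and 342.9 CPM in WT-shSCR, 239.6 and 261.0 in WT-shARF and 279.7 and 361.7 in Arf-/--shSCR. WT-shARF was the lowest, by -0.31 against WT-shSCR (SE 0.10, adjusted p = 0.0494, edgeR), and Arf-/--shSCR exceeded it by 0.36 (SE 0.11, adjusted p = 0.0465, edgeR). Each of these was lost in 7 of 12 alternatives. DESeq2 and all groups in one fit ended both, TMM factors without ribosomal protein genes and no filter ended the first, RLE and upper quartile factors ended the second, and each was lost without 3 of the 4 replicates.

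Psma5, an alpha subunit, served the study as a reference gene of its qPCR. Its RNA was 163.0 and 174.8 CPM in WT-shSCR, 151.7 and 153.9 in WT-shARF and 163.5 and 161.5 in Arf-/--shSCR. Since the gene was chosen for steady RNA, these values are a description with no test. Its footprints were 210.4 and 236.9, 209.3 and 213.0, and 229.3 and 255.0 CPM, and no difference passed (0.13 in Arf-/--shSCR and -0.08 in WT-shARF, adjusted p = 0.488 and 0.735, edgeR). The primers of the study, shown because the gene has near-identical pseudogenes, were these.

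Forward primer: attggctctgcttctgaggg
Reverse primer: atgagcgaggacttgatggc

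They span bases 859 to 950 of the 1239-base GENCODE transcript Psma5-201, inside its coding sequence (bases 352 to 1077), and frame 92 bases. Both primers were also found whole in the annotated pseudogene Gm12989, again 92 bases apart. Of the coding windows of Psma5, 90.37% occur in genes elsewhere.

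The core chaperones Psmg1 and Psmg2, which pair and start the alpha ring, had 1 call each, Psmg1 in footprints and Psmg2 in RNA. The change of TE passed for neither, with 0.27 and 0.80 for Psmg1 in Arf-/--shSCR and WT-shARF (adjusted p = 0.918 and 0.69, edgeR) and the values above for Psmg2. Psmg1 (chr16:95979933-95990960, minus strand) had footprints of 23.93 and 23.65 CPM in WT-shSCR, 44.02 and 34.18 in WT-shARF and 34.44 and 46.59 in Arf-/--shSCR. Every value of the other groups lay above WT-shSCR. The rise was 0.78 in Arf-/--shSCR (SE 0.23, adjusted p = 0.0173, edgeR) and was lost in 4 of 12 alternatives, DESeq2 among them. Its RNA, 35.39 and 39.99, 35.91 and 35.15, and 48.42 and 55.82 CPM, did not pass in any comparison (0.47 in Arf-/--shSCR, adjusted p = 0.233, edgeR). Psmg2 had RNA of 21.08 and 18.71 CPM in WT-shSCR, 36.45 and 37.72 in WT-shARF and 39.68 and 31.35 in Arf-/--shSCR. It rose by 0.88 in WT-shARF (SE 0.26, adjusted p = 0.0347, edgeR), a call lost in 5 of 12 alternatives, DESeq2 among them, and the value in Arf-/--shSCR was 0.83 (adjusted p = 0.0835, edgeR). Its footprints, 37.69 and 32.32, 33.19 and 36.46, and 30.97 and 31.51 CPM, overlapped between WT-shSCR and WT-shARF. Psmg3 and Psmg4, the other chaperone pair, were not called.

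The immunoproteasome subunits were rare, and the footprints of Psmb8 and Psmb10 fell in Arf-/--shSCR. Psmb8 (chr17:34197721-34201454, plus strand), which replaces Psmb5, had 21 and 19 footprint reads in WT-shSCR, 11 and 15 in WT-shARF and 3 and 9 in Arf-/--shSCR. In CPM these were 6.88 and 7.49, 3.97 and 3.11, and 0.577 and 1.74, with no overlap between groups. Its RNA followed the same order, 6.02 and 7.09, 2.14 and 4.22, and 1.82 and 0.859 CPM, but did not pass (-2.20 in Arf-/--shSCR, adjusted p = 0.0685, edgeR). The footprints fell in Arf-/--shSCR by 2.59 on the log2 scale (SE 0.73, adjusted p = 0.0107, edgeR), a call lost in 3 of 11 alternatives.

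Psmb10 (chr8:105935735-105938444, minus strand), which replaces Psmb7, had footprints of 19.34 and 19.31 CPM in WT-shSCR, 23.09 and 16.99 in WT-shARF and 6.93 and 11.6 in Arf-/--shSCR. They fell in Arf-/--shSCR by 1.05 (SE 0.36, adjusted p = 0.0422, edgeR), a call lost in 4 of 12 alternatives, DESeq2 among them. Its RNA was 16.94 and 16.13, 18.76 and 15.93, and 13.47 and 16.32 CPM, and the groups overlapped (-0.16 in Arf-/--shSCR, adjusted p = 0.845, edgeR). Against WT-shARF its footprints were lower by a log2 value of -1.09, which did not pass (adjusted p = 0.0555, edgeR). It passed in 5 of 12 alternatives, with the 3 groups fitted together, a block on replicate, no filter, a minimum of 10 counts per library, and without Arf-/--shSCR replicate 2 (lowest adjusted p = 0.0202, edgeR). Psmb9, which replaces Psmb6, had at most 3 reads in any library.

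The summed macrophage and myeloid markers fell in the same order as Psmb8. In RNA they were 825.6 to 841.1 CPM in WT-shSCR, 324.5 to 419.7 in WT-shARF and 76.46 to 130.5 in Arf-/--shSCR. In footprints all 17 tested were called lower in Arf-/--shSCR than in WT-shSCR, where 8.95% of all genes were. Of the 18, Tlr8 had no RNA read in Arf-/--shSCR, and the rest had reads in every group. Their part in the change of Psmb8 and Psmb10 was not tested. In these bulk samples fewer cells of a type and less RNA per cell cannot be told apart. Of 10 genes of antigen processing, 9 were tested in the footprints of Arf-/--shSCR and 3 fell, where 8.95% of all genes did. Without WT-shSCR replicate 1 or 2 these calls went too, since no gene was then called. Tap1, a subunit of the peptide transporter, fell by 1.81 on the log2 scale (adjusted p = 0.00327), Tapbp, its bridge to MHC class I, by 1.23 (adjusted p = 0.000126), and B2m, the light chain of MHC class I, by 0.58 (adjusted p = 0.000369, edgeR for all). The RNA of B2m fell as well, by 0.65 (adjusted p = 0.0215, edgeR). In the footprints of WT-shARF the values of Tap1, Tapbp and B2m were -1.13, -0.58 and -0.31 and did not pass (adjusted p = 0.0881, 0.0976 and 0.0706, edgeR).

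**Figure D5:**
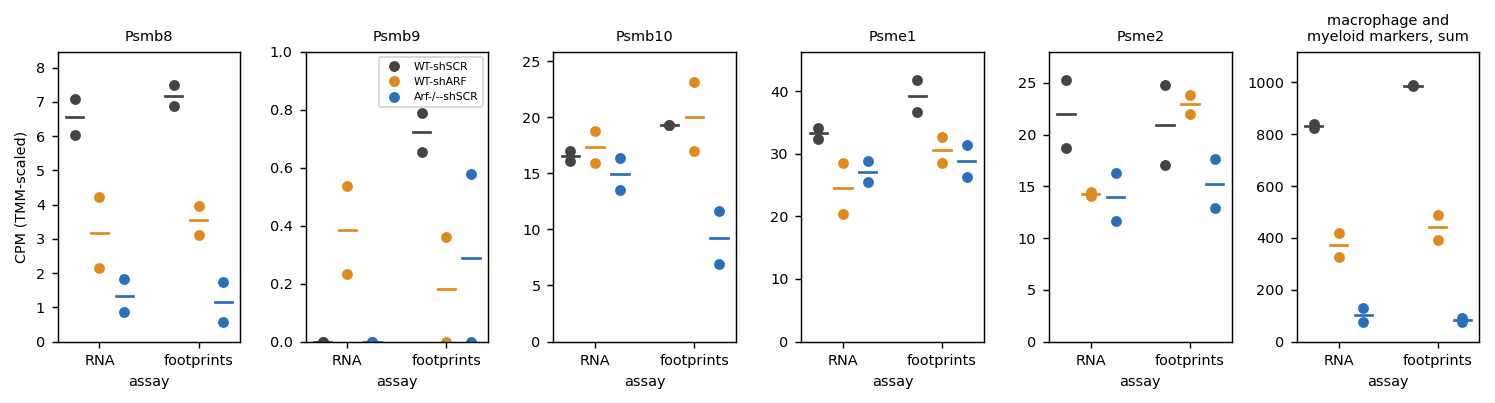
Level in CPM (vertical axes, from 0, each panel with its own scale) of 3 immunoproteasome subunits, the 2 subunits of the interferon-induced activator and the sum of 18 macrophage and myeloid markers, in RNA and footprints (horizontal axis), 1 point per library, with a bar at the mean, coloured by cells. Psmb8 and the marker sum both lie highest in WT-shSCR and lowest in Arf-/--shSCR.

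Psme1 and Psme2, the activator that goes with the immunoproteasome, were not called. Psme1 footprints were 36.71 and 41.78 CPM in WT-shSCR, 28.5 and 32.73 in WT-shARF and 31.36 and 26.29 in Arf-/--shSCR (-0.43 in Arf-/--shSCR, adjusted p = 0.192, edgeR). WT-shSCR lay above the other groups. Psme2 footprints, 17.04 and 24.83, 22.01 and 23.82, and 12.89 and 17.59 CPM, overlapped between WT-shSCR and each other group. Both WT-shARF values lay above both Arf-/--shSCR values, a difference of -0.59 that did not pass (adjusted p = 0.221, edgeR). Psme2 and Psme2b share most of their coding sequence, so reads of the pair are in part not countable. Psme3, Psme4 and the inhibitor Psmf1 were not called in any comparison.

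Of 30 further genes of the proteasome pathway (ubiquitin, shuttle factors, cap-bound enzymes and transcription factors), 29 were in the files and all 29 were tested. In Arf-/--shSCR against WT-shSCR, 1 fell in RNA (Ubqln2), where 3.99% of all genes did. In footprints 2 rose and 2 fell, where 9.57% and 8.95% of all genes did, so these shares were no larger than those of all genes. Uchl5, a deubiquitinase of the cap, rose in footprints by 0.63 (adjusted p = 0.0149, edgeR), and Nfe2l1, the gene of NRF1, fell by 0.55 (adjusted p = 0.00262, edgeR). Both calls were lost without WT-shSCR replicate 1 or 2, where no gene was called. In WT-shARF, 2 fell in RNA, where 4.17% of all genes did, and 1 rose and 2 fell in footprints, where 5.63% and 5.5% did. Vcp, the unfoldase that hands substrates to the proteasome, fell in RNA by 0.50 (adjusted p = 0.0135, edgeR) and in footprints by 0.44 (adjusted p = 1.67e-05, edgeR). Ubb, a ubiquitin gene, fell by 0.55 (adjusted p = 0.0268, edgeR) and 0.58 (adjusted p = 0.000289, edgeR). Between Arf-/--shSCR and WT-shARF, Usp14, Vcp and Ubb had more footprints in Arf-/--shSCR, where 3.93% of all genes were called higher, with values of 0.54, 0.30 and 0.48 (adjusted p = 0.000836, 0.00446 and 0.00382, edgeR). The RNA of Ubb differed by 0.48 there and did not pass (adjusted p = 0.149, edgeR). The footprint calls of Usp14, Vcp and Ubb in this comparison did not remain without WT-shARF replicate 1, in a fit with fewer samples.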

How the data were processed

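The authors removed adapters, rRNA and other noncoding reads, mapped the rest to mm10 by TopHat and tallied them over coding sequence by HTSeq, leaving out reads with several alignments. UMI-tools, cutadapt and Bowtie2 also stand in the submitters' processing notes, without versions. As deposited, each gene has an unnormalized count, in 1 column per library, and every sample had its own file. The closing summary lines of each file stayed out, among them alignments that were not unique, 46.34% to 81.38% of a library's. TMM factors and CPM came from edgeR 4.0.16 (R 4.3.3), which kept genes by filterByExpr and ran its quasi-likelihood F test over the 4 libraries of a comparison, or, for TE, of the interaction of assay and cells over 8. Calls had an adjusted p under 0.05 (Benjamini-Hochberg, all genes). The standard error is the log2 fold change over the square root of F. Coding lengths and shared 28-base windows came from GENCODE M21 (GRCm38), where all 50 symbols matched, and promoters from RefSeq (GRCm38.p6). Tests were tried on simulated data. DESeq2 1.42.0, other factors, filters and left-out replicates were alternatives. Named were the members called in any comparison, the largest rise and fall of each, the catalytic and immunoproteasome subunits, Psma5, and the members with the highest and lowest footprints per length by role. Members and lists were chosen with earlier results of these data known. At 10 to 20 reads per gene counting error alone is large, and depth was lowest in WT-shSCR replicate 2. Duplicate removal by molecular identifier is not given in the sources used here.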

Additional observations from a re-analysis of the deposited data

Results flagged for a closer look

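The difference between the 2 contrasts with WT-shSCR, tested as Arf-/--shSCR against WT-shARF, was past the threshold for 1 proteasome gene in RNA and 4 in footprints, all higher in Arf-/--shSCR (edgeR, adjusted p under 0.05), where 1.38% and 3.93% of all genes were called higher. In RNA it was Psmc6 (0.69, SE 0.17). In footprints the genes were Psma2 (0.36, SE 0.11), Psmb4 (0.34, SE 0.09), Psmb7 (0.43, SE 0.10) and Psmc6 (0.31, SE 0.09). In all 5 cases both Arf-/--shSCR values exceeded both WT-shARF values. With DESeq2 Psmb4 and Psmb7 remained past the threshold in footprints. None of the 5 calls remained without WT-shARF replicate 1 or 2, where 35 and 6 genes of all were called in RNA and 0 and 1 in footprints. Psmb10 footprints, not past the threshold here, were called lower in 5 of 12 alternatives. Groups of 2 libraries allow no check for a single library that stands apart.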

How the results depend on the processing

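No called change of a named gene turned its direction under any of the 11 or 12 alternatives run for it: of 239 values, 154 stayed past the threshold and 85 did not. Of 72 recounts of called members in RNA and footprints, 45 lay within 1.5 times the count in the report. The 36 recounts for TE all gave 0, as in the report. DESeq2 called 2 members in the RNA of WT-shARF against WT-shSCR, where 318 of 10503 genes were called. It called 0 in the RNA of Arf-/--shSCR against WT-shARF, where 193 of 10632 were. In footprints it called 2 in Arf-/--shSCR against WT-shSCR, where 1305 of 10737 were, and 2 in Arf-/--shSCR against WT-shARF, where 667 of 10941 were. With all groups in one fit, 2 were called in the RNA of Arf-/--shSCR against WT-shSCR, where 1050 of 11011 genes were. In the RNA of WT-shARF against WT-shSCR this fit called 3, where 497 of 11011 genes were. Without a filter, 2 were called in the RNA of Arf-/--shSCR against WT-shARF, where 617 of 18051 genes were. Leaving out each replicate gave, against WT-shSCR, 0 to 1 members in the RNA and 0 to 3 in the footprints of Arf-/--shSCR, and 0 to 7 and 0 to 4 in those of WT-shARF. For Arf-/--shSCR against WT-shARF it gave 0 to 2 in RNA and 0 to 5 in footprints. The number of genes called among all genes also moved between these fits. A single library left in a group by such an omission is assumed to vary like the other group, and the fit has fewer samples. With the replicate number as a block, 0 members were called in the RNA of Arf-/--shSCR against WT-shSCR, where 827 of 10659 genes were. The block called 0 in the RNA of Arf-/--shSCR against WT-shARF, where 188 of 10632 genes were. It called 7 in the RNA of WT-shARF, where 1011 of 10503 genes were. In footprints it called 5 in Arf-/--shSCR (2075 of 10737 genes), 3 in WT-shARF (1376 of 10307) and 5 in Arf-/--shSCR against WT-shARF (1109 of 10941). The block called no TE change of a member. Deviations of equally numbered samples from their group means correlated by -0.081 to 0.052. Counting error also enters these deviations, so they cannot show whether samples with equal numbers shared a culture. The cause of these losses was not tested beyond the smaller number of samples.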
